A study of Homo sapiens with 6 samples.

Results

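Chemokines, interleukins and colony-stimulating factors are secreted proteins by which cells attract, activate and keep alive leukocytes and other neighbouring cells, and they were followed here in Hs578T cells with and without knockdown of CCN3. The members were chosen by gene symbol: all CXCL and CCL chemokines with a numbered symbol, CX3CL1, and 20 named interleukins, colony-stimulating factors and related cytokines (IL1A, IL1B, IL6, IL7, IL11, IL12A, IL15, IL16, IL18, IL24, IL32, IL33, IL34, LIF, CLCF1, CSF1, CSF2, CSF3, TNF and TSLP). This gave 59 members among the 46427 genes listed. Of these, 21 had 0 counts in all 6 libraries, 10 had some counts but too few to be tested, and 28 were tested.

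Hs578T is an established triple-negative breast cancer cell line of mesenchymal character. The cells were grown in DMEM with fetal bovine serum, transduced with a pSUPER retrovirus carrying either a control shRNA (shCTRL) or CCN3 shRNA #2 (shCCN3), and selected with puromycin, so that both groups carry the vector and the drug selection. CCN3 is a secreted matricellular protein, and the comparison asks what its partial knockdown does to the mRNA of the cells, measured by stranded mRNA-seq in 3 libraries per group. A single shRNA stands behind the knockdown group, so effects of this shRNA on other transcripts cannot be told apart from those of less CCN3. The control and knockdown cells were also transduced and selected separately. Differences between the cell lines that arose in this way cannot be told apart from the knockdown either. The study's methods speak of selected clones without saying how many, and the series describes the replicates as biological replicates, so the p-values measure the spread between these libraries.

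Chemokines are divided into CXC, CC and CX3C classes by the spacing of their first cysteines, and they act through G protein-coupled receptors that guide cell migration. Interleukins, colony-stimulating factors and TNF act through single-pass receptors that signal through kinases or adaptor proteins to transcription factors such as STAT3 and NF-kB. In breast cancer cells several of these ligands, among them IL6, CXCL8, CCL2, CCL5 and CSF1, are known as signals to the tumour stroma and to infiltrating leukocytes, and transcription of many of them is driven by NF-kB, AP-1, C/EBP or interferon-activated factors.

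The libraries held 56159110 to 68393177 counts, where a gene with 3 counts has 0.0435 to 0.0540 CPM (counts scaled by library size with TMM factors), a limit that covers counting error only. Within a group the libraries differed by more than counting noise, with a chi-square per degree of freedom of 7.11 to 46.5. shCCN3 replicate 2 stood apart from replicates 1 and 3 of its group, at 38.1 and 46.5 against 9.98 between those 2, and the results that rest on it or on any other single library are given with and without that library. CCN3 itself was at 101 ± 2.43 CPM in the control and 47.0 ± 0.469 CPM in the knockdown libraries (SD, n = 3 each), and fell by 1.10 on the log2 scale (SE 0.055, edgeR adjusted p = 1.34e-06). The mesenchymal marker VIM was abundant in both groups, at 7778 and 7064 CPM, and of the 6 mesenchymal markers CAV1 and CD44 fell by 0.65 and by 0.25 on the log2 scale, while the other 4 did not pass the test (edgeR). Of 6 epithelial markers, EPCAM, CDH1, KRT19 and ESRP1 were too low to be tested, KRT18 rose by 0.51 and KRT8 fell by 0.52 on the log2 scale (edgeR adjusted p = 0.00172 and 0.00221). The part of these markers in the members' values was not tested. Leukocyte markers summed to 95.6 to 108 CPM in shCTRL and 58.5 to 60.2 CPM in shCCN3 libraries, nearly all of it CD68, a lysosomal protein, and 6 of the 12, including CD3E and ITGAM, were at 0 in every library. The part of the change in CD68 in any other value was not tested. PTPRC, which encodes the pan-leukocyte protein CD45, did not exceed 0.203 CPM in any library. Endothelial markers summed to 3.90 to 5.48 CPM and 3.61 to 4.43 CPM in the groups. Of the receptors that define triple-negative cells by their absence, ESR1 was too low to be tested, PGR was 2.86 and 3.80 CPM and ERBB2 was 77.9 and 78.2 CPM, and neither PGR nor ERBB2 passed the test.

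CCL5, IL6, IL32 and CXCL10 rose at least 2-fold in CCN3 knockdown cells, TNF and IL18 appeared from a level near 0, and CCL2 fell to 0.490 times its control level. In all, 15 of the 28 tested members passed the test (edgeR's quasi-likelihood test, adjusted p under 0.05 over all 17419 genes tested), against 33.4% of all genes. The 10 higher members compare with 16.2% of all genes called higher, and the 5 lower ones with 17.3% called lower. Of the members, 7 were called with a change of at least 2-fold, 6 higher and 1 lower, where 8.10% of all genes were. The groups did not overlap for 19 of the 28 tested members and for 46.3% of all genes. The median log2 fold change was 0.28 over the tested members and 0.0076 over all genes. Among the tested members, 4 (CCL7, IL16, IL18 and TNF) had enough counts in the shCCN3 group only, so that a difference was in part a condition of their being tested. IL34 had enough counts in neither group alone and was tested through libraries of both. With a requirement of at least 10 counts in every library, 23 members were tested and 13 were called, beside 5508 of the 15702 genes tested in this way. TNF and IL18 were then not tested, and 5 members were called at least 2-fold, a count not taken over all genes in this setting. An exact permutation test of 3 libraries against 3 cannot give a two-sided p below 0.1. In bulk RNA, fewer cells that express a gene and less of its mRNA per cell cannot be told apart, which applies to every value given here. Summed over all members, the level was 646 to 663 CPM in shCTRL and 709 to 715 CPM in shCCN3 libraries, most of it CSF1 and CXCL12.

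**Figure D1:**
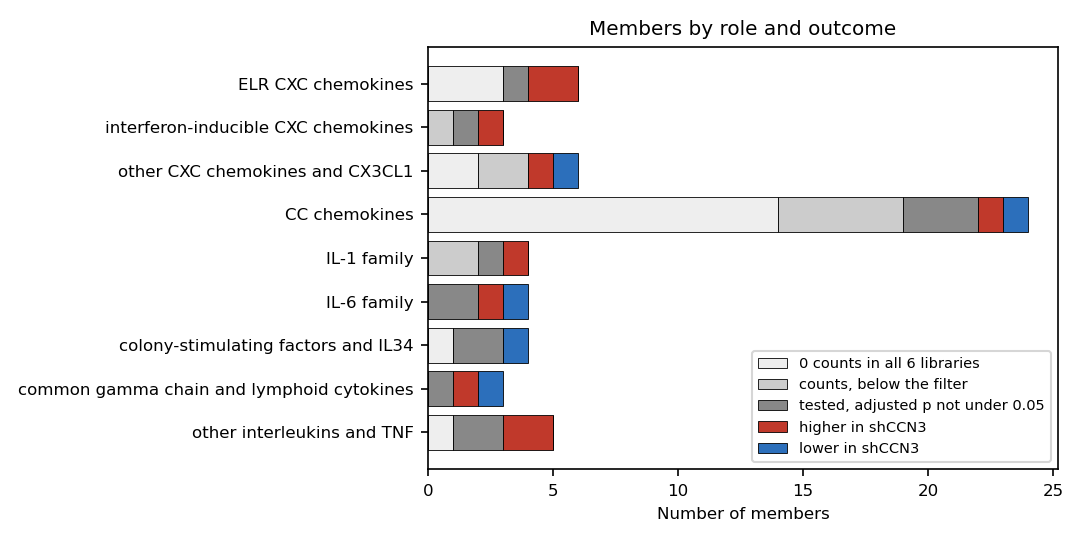
Number of members in each role (horizontal bars), divided into those with 0 counts in all 6 libraries, those with counts below the filter, those tested without an adjusted p under 0.05, and those called higher or lower after CCN3 knockdown. Of 24 CC chemokines only 5 were tested, whereas all 4 members of the IL-6 family were.

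The CC chemokines mainly attract monocytes, T cells and eosinophils. Of the 24 members of this class, 14 were at 0 in every library, 5 had too few counts, and 5 were tested, with 1 higher and 1 lower. CCL5 (RANTES, Gene ID 6352), which attracts T cells and monocytes, lies on chromosome 17 from 35871491 to 35880360 of GRCh38. Its level was 3.20, 3.57 and 3.50 CPM in the shCTRL libraries and 22.3, 26.0 and 21.3 CPM in the shCCN3 libraries. The knockdown libraries all stood far above the controls, with the highest in replicate 2. The log2 fold change was 2.76 (SE 0.106, edgeR adjusted p = 2.72e-07), a 6.78-fold higher level, and it stayed between 2.68 and 2.82 with each library left out in turn.

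CCL2 (MCP-1, Gene ID 6347), the main attractant of CCR2-bearing monocytes, changed in the opposite direction. It was 1.79, 1.61 and 2.01 CPM in shCTRL and 0.754, 1.03 and 0.876 CPM in shCCN3 libraries. The groups did not overlap, and CCL2 fell by 1.03 on the log2 scale (SE 0.195, edgeR adjusted p = 0.00315). It passed the test with each library left out, but its change was under 2-fold without shCTRL replicate 3 or shCCN3 replicate 1 (log2 fold change -0.94 and -0.92). CCL2 and CCL5 are both on chromosome 17, where CCL7, a monocyte attractant that directly neighbours CCL2, had a log2 fold change of 0.55 that did not pass the test (adjusted p = 0.413 by edgeR, 34 counts in shCTRL and 47 in shCCN3). CCL28, a mucosal chemokine, was 1.28 ± 0.325 CPM and 0.811 ± 0.277 CPM (SD, n = 3 each), with overlapping groups and an edgeR adjusted p of 0.125. CCL26, an eosinophil attractant, had an edgeR adjusted p of 0.751.

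CCL27, a skin-homing chemokine, was below the filter and was singled out after its values were seen. It had 6, 9 and 7 counts in the shCTRL libraries and 0 in every shCCN3 library. Against a floor of 3 counts per library this is an at least 2.32-fold lower level, with no test. Its gene span overlaps that of IL11RA, which had 12.9 and 10.5 CPM in the groups and did not pass the test, and how the counting divided reads between them was not tested. CCL3 and CCL4, macrophage inflammatory proteins that have near-identical gene copies, held 11 and 14 counts and 4 and 4 counts in the shCTRL and shCCN3 groups, and are uncertain for that reason.

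CXCL10 and CXCL11, the interferon-inducible chemokines that attract CXCR3-bearing T cells, lie side by side on chromosome 4. CXCL10 (IP-10, Gene ID 3627) was 1.48, 1.56 and 1.21 CPM in shCTRL and 2.97, 3.78 and 3.21 CPM in shCCN3 libraries. It rose by 1.23 on the log2 scale (SE 0.167, edgeR adjusted p = 0.000499), with no overlap. CXCL11 (Gene ID 6373) was 0.684, 0.159 and 0.983 CPM against 1.36, 1.53 and 1.39 CPM. Here too all knockdown libraries were above all controls, but the control libraries spread widely, and the log2 fold change of 1.22 (SE 0.461) did not pass the test (edgeR adjusted p = 0.0717). The value rests on shCTRL replicate 2, the lowest control: it was 0.78 without that library, and 1.74 with an edgeR adjusted p of 0.0267 without shCTRL replicate 3. CXCL9, the third ligand of CXCR3, had 4 counts in shCTRL and 0 in shCCN3 libraries.

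The upstream sequences of both genes are shown because they are neighbours whose log2 fold changes were 1.23 and 1.22. They are the 250 bases before the transcription start in RefSeq (GRCh38.p14), read 5′ to 3′ on the gene's strand, the minus strand for both, at chr4:76023498-76023747 for CXCL10 and chr4:76036071-76036320 for CXCL11. Capitals mark matches on either strand to the kappaB consensus, the binding pattern of NF-kB, and to the core of the interferon-stimulated response element, spelled as 2 copies of GAAA separated by 2 bases.
CXCL10: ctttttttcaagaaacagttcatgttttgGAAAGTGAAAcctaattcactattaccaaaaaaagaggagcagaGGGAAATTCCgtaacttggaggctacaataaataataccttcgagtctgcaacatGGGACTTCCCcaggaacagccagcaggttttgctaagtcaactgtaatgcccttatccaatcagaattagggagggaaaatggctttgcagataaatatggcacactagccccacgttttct
CXCL11: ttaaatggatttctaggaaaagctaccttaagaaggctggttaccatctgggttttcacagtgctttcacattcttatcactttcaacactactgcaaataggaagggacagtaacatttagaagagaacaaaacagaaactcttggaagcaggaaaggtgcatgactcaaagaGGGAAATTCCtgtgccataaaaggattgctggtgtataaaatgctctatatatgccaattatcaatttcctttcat
In CXCL10 the interferon element core begins 221 bases before the start and the kappaB matches begin 177 and 122 bases before it. The CXCL11 window holds a kappaB match that begins 76 bases before the start.

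The promoter table held windows for 18 of the tested members other than IL7. Of these, 7 had a kappaB match (CXCL2, CXCL3, CXCL10, CXCL11, IL6, IL12A and IL32), whereas 5.05% of the 27305 promoters in the table did, and only CXCL10 had the interferon element core, which 3.07% of promoters held. TNF, CXCL8, CXCL12 and TSLP were called higher and had a window without a kappaB match. CXCL3, CXCL11 and IL12A held a match and were not called. None of these windows belongs to a member called lower, or to CCL5 or IL18. IL7, which was called lower, was left out of this search, and matches were not compared between the directions. A match is a description of letters and not a measured binding site, and a window without one says nothing about the factor.

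The CXC chemokines with an ELR motif attract neutrophils through CXCR1 and CXCR2 and promote vessel growth. CXCL8 (IL-8, Gene ID 3576), by far the most abundant of them per kilobase of exon, rose moderately. Its level was 45.0, 45.9 and 40.5 CPM in shCTRL and 58.8, 58.2 and 61.1 CPM in shCCN3 libraries, a log2 fold change of 0.44 (SE 0.068, edgeR adjusted p = 0.000995). The groups were well apart, and the change of CXCL8 stayed between 0.39 and 0.48 with each library left out.

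CXCL2 and CXCL3, a pair of closely related neutrophil attractants in the same cluster on chromosome 4, had fold changes of opposite sign, of which only that of CXCL2 passed the test. CXCL2 (Gene ID 2920) was 1.46, 1.27 and 1.37 CPM in shCTRL and 1.92, 2.07 and 2.42 CPM in shCCN3 libraries, and it rose by 0.64 on the log2 scale (SE 0.166, edgeR adjusted p = 0.0155). This call was lost without shCTRL replicate 2 (edgeR adjusted p = 0.0634) and without shCCN3 replicate 3 (edgeR adjusted p = 0.0589). CXCL3 (Gene ID 2921) was 0.800, 1.07 and 1.37 CPM against 0.682, 0.972 and 0.610 CPM, with overlapping groups and a log2 fold change of -0.52 that did not pass the test (SE 0.277, edgeR adjusted p = 0.187). Whether the changes of CXCL2 and CXCL3 differ from each other was not tested. Over stretches of 50 bases, 8.99% of those in CXCL2 transcripts also occur in CXCL3, so reads from these genes can be confused in part. CXCL1, which shares 4.81% of its stretches with CXCL2, and CXCL5 and CXCL6 were at 0 in all libraries.

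The 250 bases before the starts of CXCL2 (chr4:74099196-74099445) and CXCL3 (chr4:74038690-74038939), both on the minus strand of GRCh38.p14 (RefSeq), are shown because these related genes had fold changes of opposite sign. Capitals mark the kappaB match as above.
CXCL2: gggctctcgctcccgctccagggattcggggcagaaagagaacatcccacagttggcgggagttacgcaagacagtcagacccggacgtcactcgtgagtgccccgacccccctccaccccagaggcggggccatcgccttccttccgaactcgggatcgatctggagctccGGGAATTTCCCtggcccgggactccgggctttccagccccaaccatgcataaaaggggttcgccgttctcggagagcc
CXCL3: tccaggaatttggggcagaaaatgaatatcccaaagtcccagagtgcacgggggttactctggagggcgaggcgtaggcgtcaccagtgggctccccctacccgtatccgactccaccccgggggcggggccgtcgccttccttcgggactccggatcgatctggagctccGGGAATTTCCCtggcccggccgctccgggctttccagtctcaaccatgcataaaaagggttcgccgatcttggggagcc
Each window holds one stretch in which overlapping kappaB matches are read on the opposite strands. The stretch begins 78 bases before the start in CXCL2 and 79 bases before it in CXCL3.

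Among the other CXC chemokines, CXCL12 (SDF-1, Gene ID 6387), the stromal ligand of CXCR4 and ACKR3, had a high and slightly increased level. It was 221, 208 and 206 CPM in shCTRL and 263, 263 and 254 CPM in shCCN3 libraries, without overlap. The log2 fold change was 0.30 (SE 0.056, edgeR adjusted p = 0.00306). CXCL16 (Gene ID 58191), a membrane-bound ligand of CXCR6 that also takes up oxidised lipoproteins, was 7.74, 8.02 and 6.94 CPM against 6.33, 6.19 and 5.36 CPM and fell by 0.34 on the log2 scale (SE 0.108, edgeR adjusted p = 0.0358). This call was fragile: it was lost without shCTRL replicate 1 or 2 or shCCN3 replicate 1 or 3 (edgeR adjusted p = 0.103, 0.140, 0.0581 and 0.128). CXCL13 and CXCL17 were at 0 in every library, and CXCL14 and CX3CL1 held 4 and 3 counts, all in the shCCN3 group.

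**Figure D2:**
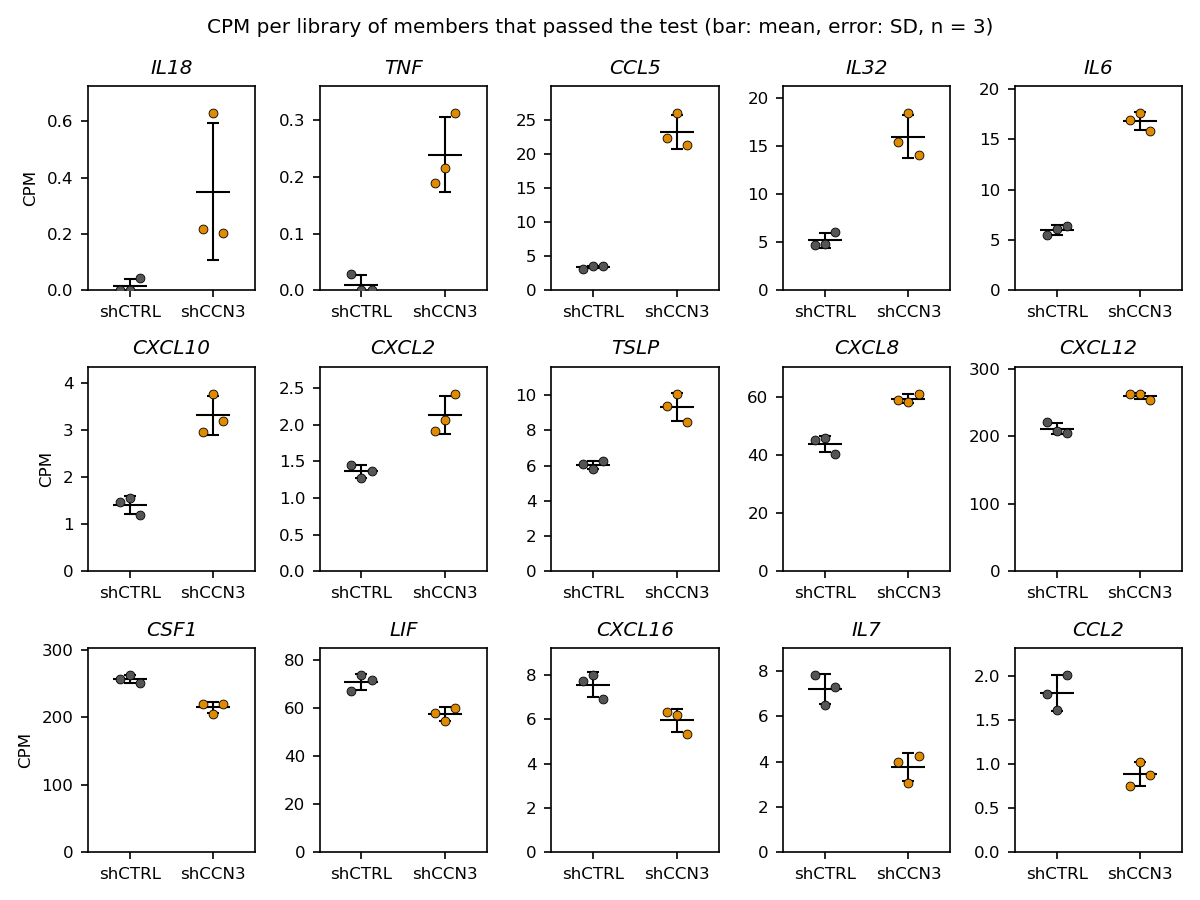
CPM per library (vertical axes, linear from 0) of the 15 members that passed the test, in shCTRL and shCCN3 cells. Points are libraries, horizontal bars the mean and error bars the SD (n = 3). In every panel the groups are separate, widely so for CCL5, IL32 and IL6 and narrowly for CXCL16.

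The IL-6 family signals through the shared receptor chain gp130, encoded by IL6ST, and all 4 members were tested. IL6 (Gene ID 3569), which drives the acute-phase response and STAT3 signalling, rose from 5.50, 6.05 and 6.44 CPM in shCTRL to 16.9, 17.6 and 15.8 CPM in shCCN3 libraries. All knockdown libraries were more than 2-fold above all controls. The log2 fold change was 1.49 (SE 0.093, edgeR adjusted p = 4.55e-06), a 2.80-fold higher level. It stayed between 1.43 and 1.54 with each library left out. IL6 lies on chromosome 7 from 22727200 to 22731998 of GRCh38, and its exons overlap those of STEAP1B on the other strand by 46 bases, 2.22% of the IL6 exons. STEAP1B had a log2 fold change of -0.80 that did not pass the test.

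LIF (Gene ID 3976), which maintains stem cells and signals through LIFR, was the most abundant of the family per kilobase of exon and fell slightly. It was 67.3, 73.9 and 71.7 CPM in shCTRL and 57.9, 54.6 and 60.2 CPM in shCCN3 libraries, and it fell by 0.30 on the log2 scale (SE 0.066, edgeR adjusted p = 0.00654), without overlap. IL11, a stromal and bone-acting cytokine, was 5.61 ± 0.534 CPM and 6.71 ± 0.337 CPM (SD, n = 3 each). Its groups did not overlap, but the log2 fold change of 0.26 did not pass the test (edgeR adjusted p = 0.10). CLCF1, a neurotrophic and B cell-stimulating member, was 15.5 ± 2.87 CPM and 19.6 ± 1.81 CPM (SD, n = 3 each), giving a log2 fold change of 0.33 at an edgeR adjusted p of 0.0869, which became 0.45 (edgeR adjusted p = 0.0400) without shCTRL replicate 3 and 0.19 (edgeR adjusted p = 0.213) without shCTRL replicate 1. LIF and IL6 thus both passed the test, in opposite directions.

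The upstream window of IL6 (chr7:22726950-22727199, plus strand, GRCh38.p14, RefSeq) is shown together with that of IL32 (chr16:3065153-3065402, plus strand). Both were picked because the member rose at least 2-fold and its window holds a kappaB match, in capitals. The pair therefore cannot show whether a match goes with a rise.
IL6: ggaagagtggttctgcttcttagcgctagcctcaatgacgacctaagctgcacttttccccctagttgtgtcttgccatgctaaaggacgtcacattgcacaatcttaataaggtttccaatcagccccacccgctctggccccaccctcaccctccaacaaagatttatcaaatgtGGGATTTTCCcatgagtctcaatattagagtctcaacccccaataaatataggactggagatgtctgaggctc
IL32: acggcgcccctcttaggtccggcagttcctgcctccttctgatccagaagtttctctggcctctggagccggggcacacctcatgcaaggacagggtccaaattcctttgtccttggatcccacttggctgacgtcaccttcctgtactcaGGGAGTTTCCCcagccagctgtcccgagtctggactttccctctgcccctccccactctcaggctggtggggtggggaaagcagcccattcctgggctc
The match begins 73 bases before the start in IL6 and 99 bases before it in IL32, where overlapping matches are again read on both strands.

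IL32 (Gene ID 9235), a cytokine absent from rodents that stimulates production of TNF and IL6 by monocytes, was 4.72, 4.78 and 6.08 CPM in shCTRL and 15.4, 18.4 and 14.0 CPM in shCCN3 libraries. The lowest knockdown library was more than 2-fold above the highest control. IL32 rose by 1.62 on the log2 scale (SE 0.137, edgeR adjusted p = 2.79e-05), a 3.07-fold higher level.

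TNF, the archetypal activator of NF-kB, was detected almost only in knockdown cells. TNF (Gene ID 7124) had 2, 0 and 0 counts in the shCTRL libraries and 13, 12 and 20 counts in the shCCN3 libraries. Taken over the groups, the ratio was 23.7, with a 95% interval for counting error of 6.20 to 202. The fitted log2 fold change of 4.33 (SE 0.823, edgeR adjusted p = 0.00324) depends on how 0 counts are handled and was 6.94 without shCTRL replicate 1, the only control library with counts. The level in knockdown cells stayed low, at 0.239 ± 0.065 CPM (SD, n = 3).

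Of the IL-1 family, IL18 (Gene ID 3606), which is matured by caspase-1 and induces interferon-gamma, also went from almost no counts to a low level. It had 0, 0 and 3 counts in shCTRL and 15, 35 and 13 counts in shCCN3 libraries, a ratio of 22.1 (95% counting interval 7.24 to 110). Of the 63 knockdown counts, 35 came from replicate 2, the library that stood apart. The fitted log2 fold change was 4.35 (SE 0.941, edgeR adjusted p = 0.00643), 3.65 without shCCN3 replicate 2 and 7.47 without shCTRL replicate 3. IL1A, an alarmin, had an edgeR adjusted p of 0.396, IL1B held 31 and 19 counts and IL33 0 and 3 counts in the shCTRL and shCCN3 groups. IL12A and IL16, which regulate T cells, did not pass the test (edgeR adjusted p = 0.566 and 0.330), and 36.0% of the IL16 exons overlap STARD5 on the other strand. IL16 was at 39, 0 and 36 counts in the shCTRL libraries, and IL34 at 14, 0 and 17 counts in shCTRL and 0, 21 and 0 in shCCN3 libraries. They are 2 of 219 genes with 1 library at 0 beside at least 10 counts in both others of its group, and such values of 0 are uncertain. IL24 was at 0 everywhere.

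**Figure D3:**
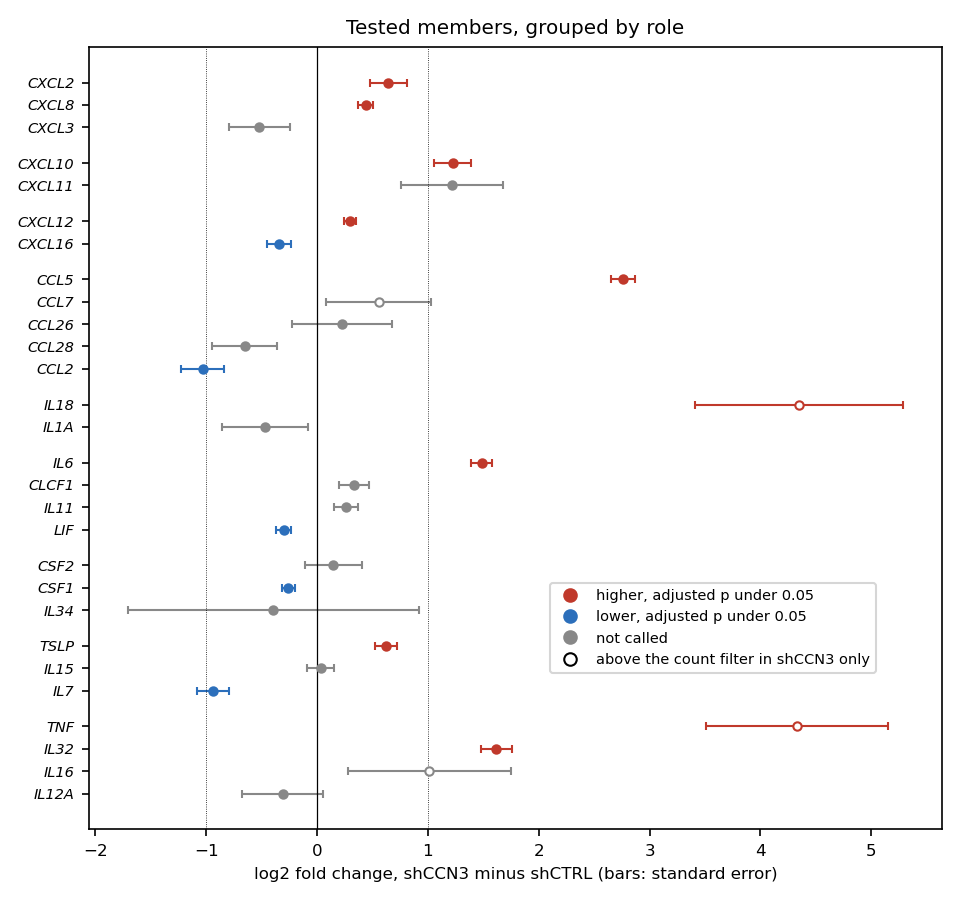
Log2 fold change, shCCN3 minus shCTRL, with its standard error (horizontal axis) for the 28 tested members, grouped by role. Open points (CCL7, IL16, IL18 and TNF) had enough counts in the shCCN3 group only. The largest values, of IL18 and TNF near 4.3, have wide errors, whereas CCL5 at 2.76 has a narrow one.

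The cytokines of lymphoid growth split in direction. TSLP (Gene ID 85480), an epithelial and stromal activator of dendritic cells, was 6.08, 5.81 and 6.26 CPM in shCTRL and 9.39, 10.1 and 8.49 CPM in shCCN3 libraries. It rose by 0.62 on the log2 scale (SE 0.099, edgeR adjusted p = 0.00117). IL7 (Gene ID 3574), a survival factor for lymphocytes, was 7.84, 6.51 and 7.32 CPM against 3.98, 3.06 and 4.27 CPM and fell by 0.94 on the log2 scale (SE 0.143, edgeR adjusted p = 0.000938). Neither gene had overlapping groups. TSLP and IL7 bind receptors that share the chain IL7R. Exons of IL7 overlap those of ZC2HC1A on the other strand by 322 bases, and that gene did not pass the test. IL15, a growth factor of natural killer cells, was 4.33 ± 0.139 CPM and 4.44 ± 0.505 CPM (SD, n = 3 each), with a log2 fold change of 0.03 (SE 0.121, edgeR adjusted p = 0.864).

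Among the colony-stimulating factors, CSF1 (M-CSF, Gene ID 1435), the survival factor of macrophages, was abundant in both groups. It was 257, 263 and 251 CPM in shCTRL and 220, 205 and 220 CPM in shCCN3 libraries, and it fell by 0.26 on the log2 scale (SE 0.057, edgeR adjusted p = 0.00670). The groups were apart, but without shCTRL replicate 2 the call was lost (edgeR adjusted p = 0.0510). Leaving out that library also cost CXCL16 its call, so that 3 instead of 5 members were called lower. CSF2 (GM-CSF) was 0.737 ± 0.178 CPM and 0.817 ± 0.116 CPM (SD, n = 3 each) with overlapping groups, IL34, the other ligand of the CSF1 receptor, had an edgeR adjusted p of 0.852, and CSF3 (G-CSF) was at 0 in every library.

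Per kilobase of exon (union of GENCODE release 29 exons), the order of levels in shCTRL cells began with CSF1 at 47.5 ± 1.09, CXCL12 at 34.8 ± 1.36, CXCL8 at 19.3 ± 1.28 and LIF at 17.9 ± 0.855 CPM per kb (SD, n = 3). CXCL8 and LIF lay within the sum of their SDs of each other, and the members above and below them did not. In shCCN3 cells CXCL12 came first at 42.8 ± 0.814 and CSF1 second at 39.7 ± 1.58 CPM per kb. CCL5 moved from place 8, at 2.26 ± 0.128 CPM per kb, to place 4, at 15.4 ± 1.64 CPM per kb, within its SD of LIF at 14.5 ± 0.717 CPM per kb. TNF and IL18 held the last 2 places in shCTRL cells, at 0.0058 and 0.0057 CPM per kb. Of the tested members, 9 were below 1 CPM in both groups.

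Genes that lie near each other can share a shift in level, so each member was set beside the median log2 fold change of its 20 nearest tested neighbours, 10 on each side. IL6 rose in a region that was lower: the 819 tested genes of chromosome 7 had a median of -0.43 and its neighbours one of -0.30, so that IL6 lay 1.91 above its chromosome. CCL5, IL32 and CXCL10 lay 2.68, 1.63 and 1.08 above their neighbours, and CCL2 and IL7 lay at -1.09 and -1.15 relative to theirs. TNF stood beside neighbours with a median of 0.41, on chromosome 6, whose 890 tested genes outside the members had a median of 0.34. Of the 4 members with the highest levels per kilobase, CXCL8 lay 0.36 above its neighbours, and the other 3 lay closer to theirs. CSF1, at -0.26, had neighbours with a median of -0.28, LIF at -0.30 had neighbours at -0.19, and CXCL12 at 0.30 had neighbours at 0.21. What part a shift of the region has in these members' values was not tested.

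**Figure D4:**
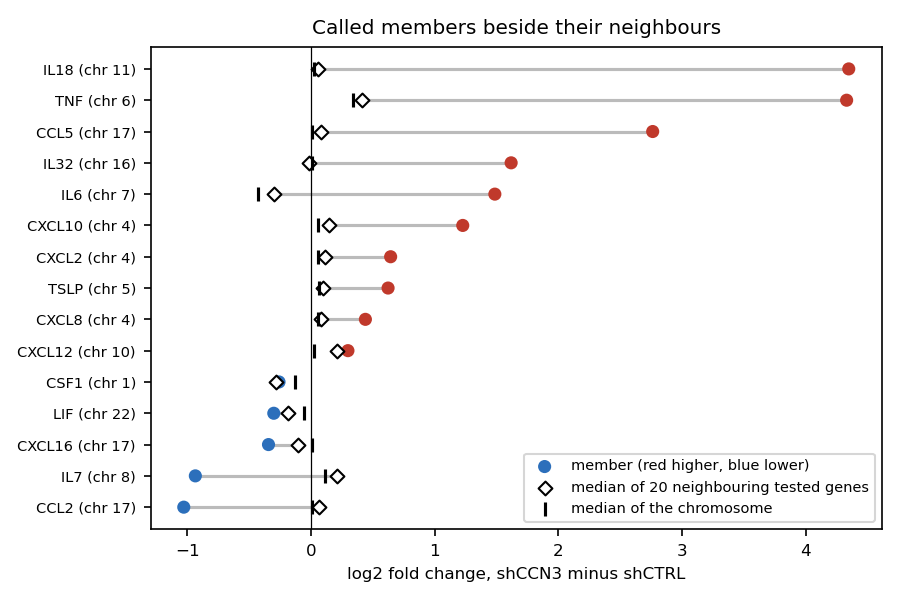
Log2 fold change, shCCN3 minus shCTRL (horizontal axis), of the 15 called members (filled circles), the median of the 20 neighbouring tested genes (diamonds) and the median of the chromosome (vertical ticks). CSF1, LIF and CXCL12 lie near their neighbours' medians, while CCL5, IL32, IL6 and CCL2 lie far from them.

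The receptors for these ligands changed in both directions, and lists of related genes are given as counts beside the background of 16.2% higher and 17.3% lower. Of 27 cytokine receptor genes, 16 were tested, 4 were higher and 4 lower. IL7R, a chain of the receptors of IL7 and TSLP, rose from 5.40 ± 0.953 to 39.7 ± 5.18 CPM (SD, n = 3 each), by 2.88 on the log2 scale (edgeR adjusted p = 1.22e-06). CRLF2, the other chain of the TSLP receptor, was at 0 in every library. CSF1R, the receptor of CSF1 and IL34, rose from 0.405 to 2.04 CPM (log2 fold change 2.33), and IL6ST from 151 to 241 CPM (log2 fold change 0.67). IL2RG, the common gamma chain, also passed the test, but it lay below 1 CPM, outside the rule for naming, and had enough counts in the shCCN3 group only.

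The ligand-binding receptor IL6R, by contrast, fell from 23.0 ± 1.09 to 6.92 ± 0.676 CPM (SD, n = 3 each), by 1.73 on the log2 scale (edgeR adjusted p = 1.89e-06). IL6 and its shared chain IL6ST were thus higher and IL6R lower in the same libraries. TNFRSF1B, the inducible TNF receptor, fell by 2.43 and IL22RA1, a subunit of the IL-22 receptor, by 1.27 on the log2 scale. TNFRSF1A, the widely expressed TNF receptor, was 167 and 157 CPM and did not pass the test (edgeR adjusted p = 0.219). IL1R1, the receptor of IL1A and IL1B, is named outside the rule and fell by 0.51 on the log2 scale.

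Chemokine receptors were scarce: of 23, 12 were at 0 in all libraries and 5 were tested, with 1 higher, 2 lower and 2 not called. CCR10, the receptor of CCL27 and CCL28, fell by 1.17, and CCRL2, an atypical receptor without chemokine signalling, by 1.23 on the log2 scale. CCR1, a receptor of CCL5, was 0.024 CPM in shCTRL and 0.910 CPM in shCCN3 libraries (edgeR adjusted p = 0.000524), and is named outside the rule, after its values were seen. It had enough counts in the shCCN3 group only and was at 0 in 2 control libraries, so its fitted log2 fold change of 5.08 depends on how 0 counts are handled. CXCR1, CXCR2, CXCR3 and CXCR4 were at 0 in every library. Of 12 antagonists and processing factors, 9 were tested, with 1 higher, 2 lower and 6 not called. IL18BP, which binds and neutralises IL-18, rose from 4.16 to 8.83 CPM (log2 fold change 1.09), and DPP4, a protease that trims CXCL10, CXCL12 and CCL5, fell from 4.40 to 1.82 CPM (log2 fold change -1.28). IL1RN, the IL-1 receptor antagonist, also fell, at less than 1 CPM. CASP1, which matures IL-18, was 9.53 and 9.95 CPM and did not pass the test. Of the genes for its activation in the list, PYCARD was at 0 in every library. NLRP3 was 0.503 and 0.536 CPM and did not pass the test.

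Genes of the pathways known to drive these ligands were described in the same way. Their lists were chosen with earlier results of these data known, so the counts are a description only. Of 25 interferon-stimulated genes, all were tested, 22 were higher and the other 3 did not pass the test, with a median log2 fold change of 1.39. BST2, which tethers budding viruses, rose by 3.07, IFI27 by 2.44 and RSAD2, an antiviral enzyme, by 2.37. Of 24 NF-kB subunits and targets, 13 were higher and 2 lower, with a median of 0.22. ICAM1, a leukocyte adhesion molecule, rose by 1.84, the feedback inhibitor TNFAIP3 by 0.96 and SOD2, a mitochondrial antioxidant enzyme, by 0.92, while the kinases IKBKE and IKBKB fell by 0.46 and by 0.38 on the log2 scale.

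Of 14 AP-1, C/EBP and STAT3 genes, 5 were higher and 4 lower, with a median of 0.03. ATF3, a stress-induced factor, rose by 1.32, JUND by 0.52 and CEBPG by 0.45, whereas CEBPA fell by 1.77, FOSL1 by 0.48 and JUN by 0.33 on the log2 scale. Of 35 cytokine and chemokine ligands outside the rule, 18 were tested, 7 were higher and 4 lower, with a median of 0.10. Of the 7 higher ligands, 3 had enough counts in the shCCN3 group only. TNFSF10 (TRAIL), a death ligand, was among these, with 0.109 CPM in shCTRL and 1.46 CPM in shCCN3 libraries (log2 fold change 3.70). IFNB1 (interferon-beta) rose by 1.31 and TGFB2 by 1.12. IL17D fell by 1.55, KITLG, the ligand of KIT, by 1.17 and FLT3LG, a dendritic cell growth factor, by 0.58 on the log2 scale. No test compared these lists with one another or with the members.

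**Figure D5:**
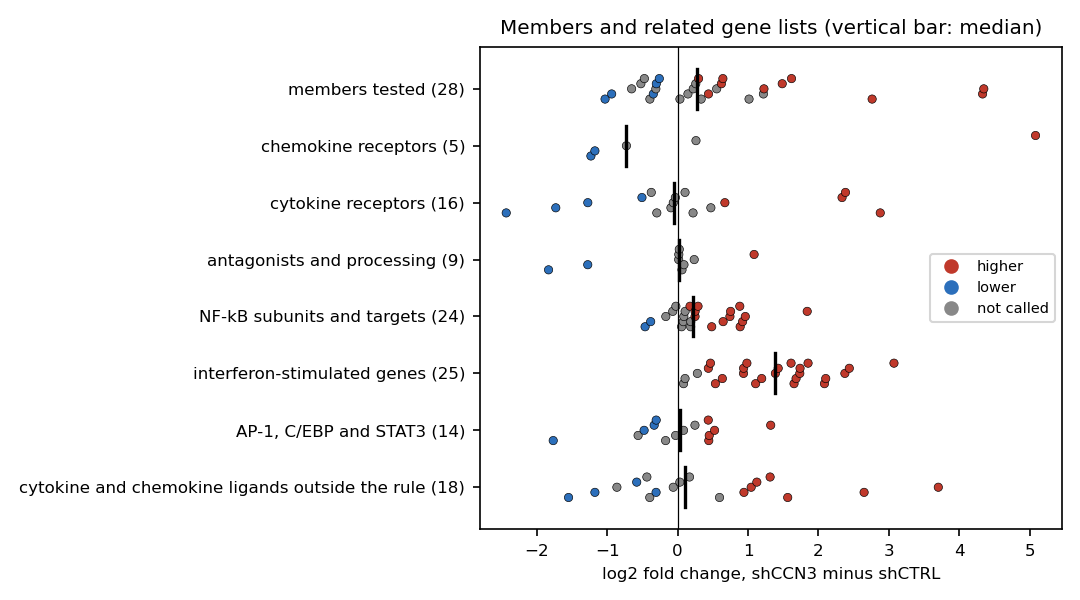
Log2 fold change, shCCN3 minus shCTRL (horizontal axis), of each tested member and each tested gene of 7 related lists, with the number tested in brackets and the median as a vertical bar. The interferon-stimulated genes lie to the right of 0 with a median of 1.39, while the receptors spread to both sides.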

How the data were processed

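RNA of 3 shCTRL and 3 shCCN3 Hs578T samples was sequenced from stranded mRNA libraries. The authors deposited raw read counts per gene, listed by NCBI Gene ID and symbol, without normalization. The submitters' processing notes name bcl2fastq 2.20.0, Trimmomatic, HISAT2 2.1.0, StringTie 2.1.3d, DESeq2 and GRCh38, without order. Whether the counts were derived from StringTie's coverage is not given in the sources used here, and if so, intervals and floors for counting error are approximate. The annotation and the use of strand in counting are not given in the sources used here, so values of overlapping genes carry that doubt. Sample labels gave each library its group.

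Counts were analysed with edgeR 4.0.16 in R 4.3.3: TMM factors, filterByExpr by group (minimum count 10), the quasi-likelihood test and Benjamini-Hochberg adjustment over 17419 genes, with 0.05 as threshold. Each SE was worked back from the test, as the absolute log2 fold change divided by the square root of the F statistic. It is approximate, above all where a group is near 0 counts. CPM use TMM-scaled library sizes, and 56159110 to 68393177 counts per library set the precision. Count ratios carry 95% intervals for counting error. Alternatives were DESeq2 size factors, upper-quartile factors, no filter, at least 10 counts in every library, DESeq2 1.42.0, limma-voom (limma 3.58.1), a replicate block, and each library left out. The scripts were tested on simulated data.

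Named were members with an adjusted p under 0.05 or a mean of at least 1 CPM in either group, and of each related list up to 3 genes per direction by size of change at 1 CPM or more. Others are given by range and count, or are named as chosen after their values were seen. These are CCL27, CCR1, IL2RG, IL1R1, IL1RN, ACKR3, and members and related genes given to show what was not called. The members and lists were chosen with earlier results of these data known. Positions and promoters come from RefSeq (GRCh38.p14, matched for 59 and 41 members), and exon lengths from GENCODE. Same-numbered libraries did not deviate together (correlations 0.0891, -0.0256 and -0.0657), so no pairing was assumed.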

Additional observations from a re-analysis of the deposited data

How the results depend on the processing

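Over the alternatives, 12 to 17 members were called, against 15, with 8 to 12 higher, 3 to 6 lower and 5 to 8 at least 2-fold. With each library left out in turn, 12 to 17 were called, 9 to 12 higher and 3 to 6 lower, the lowest without shCTRL replicate 2. The number called over all genes moved as well. It was 4181 of 17854 without shCTRL replicate 2 (12 members) and 4683 of 17840 without shCTRL replicate 3 (17 members). Without shCCN3 replicate 2 it was 7229 of 17837 (16 members), against 5825 of 17419 with all libraries. CCL5, IL6, IL32, CXCL10, CXCL8, CXCL12, TSLP, CCL2, IL7 and LIF passed the threshold in every alternative, and TNF and IL18 in every one in which they were tested, which leaves out the requirement of 10 counts in every library. CXCL16 lost its call without a filter on low counts (adjusted p = 0.0596 by edgeR). CXCL11 passed the threshold with DESeq2 and with limma-voom (adjusted p = 0.0284 and 0.0393), and CLCF1 with DESeq2 (adjusted p = 0.0495). IL15, not called, lay between -0.060 and 0.085 (log2 fold change) with each library left out, below 0 only without shCCN3 replicate 2. With the replicate number as a block, 16 members were called, 12 higher, 4 lower and 8 at least 2-fold. Under the block CXCL11 and CLCF1 passed (edgeR adjusted p = 0.0424 and 0.0435) and CXCL16 did not (0.0504). The numbers do not pair the samples, and 4887 of 17419 genes were called with the block. Depth limits the members below 1 CPM, whose fitted changes rest on few counts. The cause of these shifts was not tested.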

Other observations

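ACKR3, the receptor that removes CXCL12, was too low to be tested and was singled out after its values were seen. It was at 0.247, 0.143 and 0.253 CPM in the shCTRL libraries and at 0 in every shCCN3 library, where 3 counts would correspond to 0.0435 to 0.0540 CPM. Of the members below the filter, CCL8 had 0 counts in shCTRL and 9 in shCCN3, and CCL20 had 4 and 0 counts.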
